A study of Homo sapiens with 9 samples.

Results

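The genes described here are 10 secreted ligands of the TGF-beta family, taken by symbol: GDF15, GDF9, GDF11, INHBA, INHBB, INHBE, TGFB1, TGFB2, TGFB3 and BMP4. The set was put together with earlier results of these libraries known, and the study had itself singled out GDF15 and GDF9 in the same libraries, so the direction of those genes here is not independent evidence. They are 10 of the 58395 genes counted in each RNA-seq library, and each of the 10 passed the filter on low counts that left 16761 genes to test. The cells were MDA-MB-231, an established human triple-negative breast cancer line, harvested 96 h after reverse transfection with siRNA. The 9 libraries fell into 3 groups of 3: a nontargeting control siRNA (siNC), the first siRNA against the zinc transporter ZIP7 (siZIP7_1) and the second (siZIP7_2). The study asked how loss of ZIP7, which moves zinc out of the endoplasmic reticulum (ER), alters the cells. All groups were the same line in the same growth medium, so the siRNA was the only labelled difference between them. The labels do not say whether the libraries of a group came from separate cultures, and the p-values therefore measure the spread between these libraries, which may be technical.

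TGF-beta family ligands are made as precursors, cleaved by furin-like proteases and secreted as dimers. They bring together a type II and a type I receptor kinase, and the type I receptor then phosphorylates SMAD transcription factors: SMAD2 and SMAD3 for TGF-betas and activins, SMAD1, SMAD5 and SMAD9 for bone morphogenetic proteins. TGF-betas are secreted in a latent form held by latent TGF-beta binding proteins, and in breast cancer cells of mesenchymal type they are known for promoting invasion. GDF15 is a distant member of the family, induced by many forms of cell stress, ER stress included, and signals through its own receptor GFRAL.

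The libraries held 24153785 to 30454419 reads assigned to genes. Levels are given as CPM, the TMM-normalized count scaled to a common library size, on which 3 reads, taken as the limit of detection for counting error only, were 0.0941 to 0.129. SLC39A7, which encodes ZIP7, averaged 329 ± 12.5 CPM in the siNC libraries, 35.6 ± 2.83 in those of siZIP7_1 and 19.2 ± 1.45 in those of siZIP7_2 (mean ± SD of 3), so that 10.9% and 5.84% of the siNC level remained. It was lower with siZIP7_2 than with siZIP7_1 by 0.89 on the log2 scale (adjusted p = 4.89e-13, edgeR's quasi-likelihood test). The part of this difference in the ligand values was not tested. The mesenchymal markers VIM, CD44 and AXL lay between 438 and 5688 CPM over all libraries, but their levels differed between groups. With siNC, siZIP7_1 and siZIP7_2, VIM averaged 5529, 2687 and 2896 CPM, CD44 816, 465 and 1793, and AXL 1911, 1738 and 1005. ESR1 had at most 15 counts, PGR at most 2 and the T cell gene CD3E at most 1. CDH1, like ESR1 and PGR taken as low in this line, averaged 0.466, 4.18 and 0.998 CPM in the same order, with up to 129 counts. Summed over 8 markers of blood, endothelial, fibroblast and basal epithelial cells (PTPRC, CD3E, CD68, PECAM1, CDH5, PDGFRB, LUM and KRT14), the level was 12.2 to 13.3 CPM in the siNC libraries, 17.5 to 20.2 in those of siZIP7_1 and 28.1 to 31.9 in those of siZIP7_2. Of these markers 7 were tested at an adjusted p under 0.05. With siZIP7_1, 4 were higher (PTPRC, CDH5, PDGFRB and LUM) and 3 lower (CD68, PECAM1 and KRT14), against 70.7% of all genes called in either direction. With siZIP7_2, 5 were higher (PECAM1, CDH5, PDGFRB, LUM and KRT14), against 77.8% of all genes. CDH5 averaged 0.0119 CPM with siNC, 0.135 with siZIP7_1 and 1.27 with siZIP7_2. It passed the low-count filter only through the siZIP7_2 libraries, so its calls as higher are no separate support. The part of these markers in the ligand values was not tested. The share of reads that fell on no annotated gene was 7.43 to 8.28% with siNC, 7.80 to 9.62% with siZIP7_1 and 9.99 to 11.5% with siZIP7_2, and its part in the values below was not tested. In bulk libraries such as these, fewer cells making an mRNA and less of it per cell cannot be told apart.

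The sequence upstream of the start site is shown for 3 ligands: GDF15, whose mRNA was higher with both siRNAs, and TGFB1 and TGFB2, whose mRNAs moved in opposite directions. Each is the 250 bases before a RefSeq start site on GRCh38.p14, read 5′ to 3′ on the strand of the gene. Capitals mark matches, on either strand, to the GC box GGGCGG bound by SP1-type factors, to CCACG, the short part of the ER stress element, or to TGACGTG, the core of the unfolded protein response element. The GDF15 bases lie at chr19:18385908-18386157 on the plus strand, those of TGFB1 at chr19:41353923-41354172 on the minus strand and those of TGFB2 at chr1:218345086-218345335 on the plus strand.
GDF15: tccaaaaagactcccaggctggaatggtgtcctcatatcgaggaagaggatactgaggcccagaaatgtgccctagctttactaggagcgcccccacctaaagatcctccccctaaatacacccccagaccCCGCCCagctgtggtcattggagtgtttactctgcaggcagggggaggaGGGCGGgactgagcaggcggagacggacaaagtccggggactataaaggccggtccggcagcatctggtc
TGFB1: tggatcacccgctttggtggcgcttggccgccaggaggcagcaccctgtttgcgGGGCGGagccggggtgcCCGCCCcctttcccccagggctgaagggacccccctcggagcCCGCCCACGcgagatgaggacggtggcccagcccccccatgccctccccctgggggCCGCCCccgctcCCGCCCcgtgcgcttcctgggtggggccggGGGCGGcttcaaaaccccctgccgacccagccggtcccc
TGFB2: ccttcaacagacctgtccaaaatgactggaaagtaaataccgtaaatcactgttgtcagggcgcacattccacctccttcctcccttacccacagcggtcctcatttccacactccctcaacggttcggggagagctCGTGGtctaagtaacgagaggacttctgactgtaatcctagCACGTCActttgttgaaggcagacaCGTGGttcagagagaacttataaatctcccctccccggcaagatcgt

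The GDF15 sequence held 2 GC boxes, beginning 119 and 70 bases before the start, and none of the other motifs. The TGFB1 sequence held 6 GC boxes, the farthest beginning 196 bases before the start, and 1 CCACG at 133 bases, which shares letters with a GC box. The TGFB2 sequence held no GC box, a TGACGTG beginning 72 bases before the start and CCACG at 113 and 47 bases. RefSeq windows of 300 bases, from 250 before to 50 after a start, were found for 9 of the 10 ligands, with 15 windows in all because some genes have several starts. A window was not found for INHBE. TGACGTG was in 1 of the 15 windows, against 1.97% of the 35116 promoter windows searched. CCACG was in 7 of 15 against 38.1%, and the GC box in 6 of 15 against 45%. Windows of the same gene can overlap, and the CCACG counted in 2 windows of GDF9 is the same site. The composite C/EBP-ATF site TGATGNAA (3.62% of all windows), the AP-1 site TGANTCA (7.71%) and the SMAD palindrome GTCTAGAC (0.202%) were in none of the 15. A match is a description of the letters only, and its absence says nothing beyond this window.

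Of the 10 ligand mRNAs, 3 rose with both ZIP7 siRNAs (GDF15, GDF9 and INHBB), 5 moved in opposite directions with the 2 siRNAs (GDF11, INHBA, TGFB1, TGFB2 and BMP4), and 2 fell with siZIP7_1 without passing the test with siZIP7_2 (INHBE and TGFB3). GDF9 passed the low-count filter only through the ZIP7 siRNA libraries, where it was higher, so its calls as higher are no separate support. Over all genes tested, 17.7% were higher with both siRNAs and 18.7% were called in opposite directions. No ligand fell with both, against 20.8% of all genes. Calls were made at 0.05 on p-values adjusted by the Benjamini-Hochberg method over the 16761 genes, from the quasi-likelihood test of edgeR. With siZIP7_1 it called 10 of 10 ligands, 5 higher and 5 lower, against a background of 70.7% of all genes (34.8% higher, 35.9% lower). With siZIP7_2 it called 8 of 10, 6 higher and 2 lower, against 77.8% (38.5% higher, 39.3% lower). These shares of ligands called are near the background, so a call alone says little about these genes. The median log2 fold change of the 10 ligands was -0.20 with siZIP7_1 and 0.56 with siZIP7_2, against -0.0069 and -0.0018 over all genes tested.

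When a change of more than 1.8-fold was required (edgeR's glmTreat, adjusted p under 0.05), 5 ligands passed with siZIP7_1, GDF15, GDF9 and INHBB as higher and INHBA and TGFB3 as lower, against 16.9% of all genes (8.6% higher, 8.32% lower). With siZIP7_2, GDF15, GDF9 and TGFB1 passed as higher and TGFB2 and BMP4 as lower, again 5 of 10, against 24.7% of all genes (14% higher, 10.7% lower). The comparisons with siNC share the same 3 siNC libraries, so the values for the siRNAs are given side by side. Between the siRNAs, 10 of 10 ligands differed (78.7% of all genes, 38.1% higher with siZIP7_2 and 40.6% lower). Of them, 8 differed by more than 1.8-fold (28.2% of all genes, 15.2% higher and 13% lower), and the exceptions to the last count were GDF9 and INHBE.

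**Figure D1:**
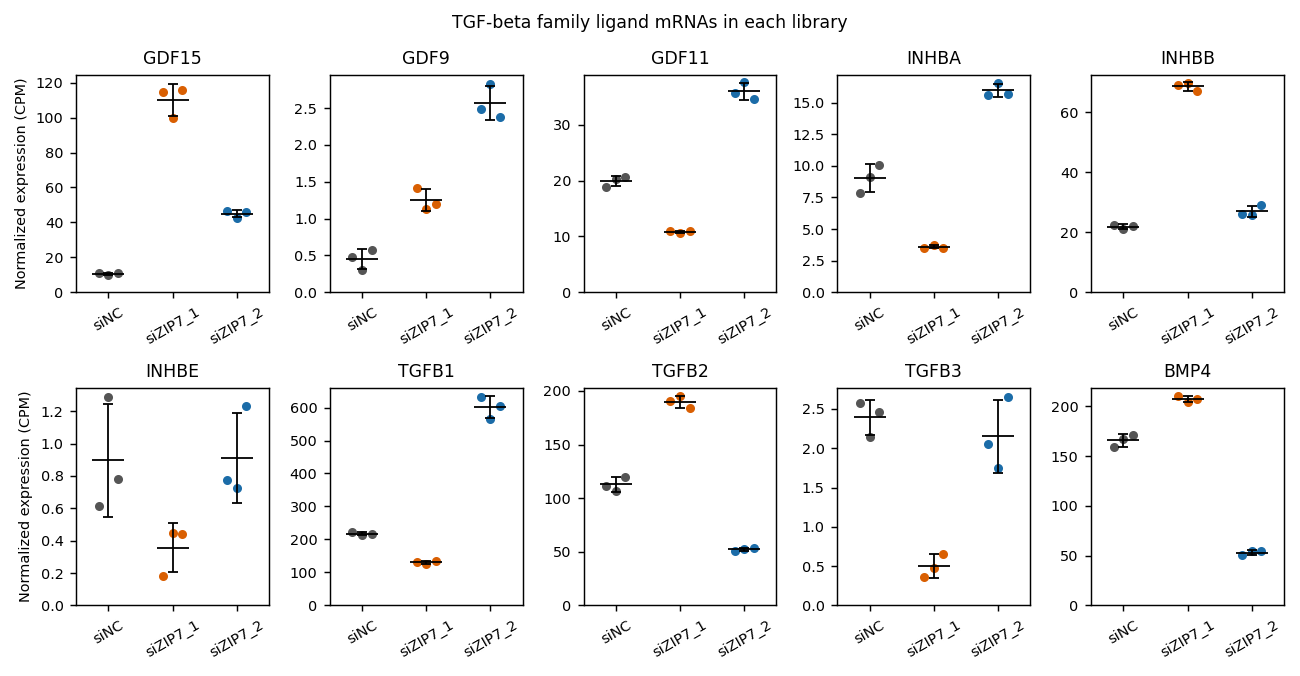
Normalized expression (CPM, linear axes from 0) of each ligand in every library, with a point for each library and bars for the mean and SD of 3 libraries. GDF15 lies at 9.67 to 11.0 CPM with siNC, above 99 CPM with siZIP7_1 and above 42 CPM with siZIP7_2, while TGFB1 and TGFB2 mirror each other, the former lowest and the latter highest with siZIP7_1.

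GDF15, on the plus strand at 19:18374731-18389176 (GRCh38, GENCODE annotation), was the ligand with the largest rise with siZIP7_1. It was at 11.0, 9.67 and 10.8 CPM in the siNC libraries, 115, 99.7 and 116 CPM with siZIP7_1, and 46.5, 42.7 and 45.8 CPM with siZIP7_2. The 3 groups did not overlap, and siZIP7_2 lay between the other groups. The rise was 10.5-fold with siZIP7_1 (log2 fold change 3.39, SE 0.070, adjusted p = 1.19e-25) and 4.28-fold with siZIP7_2 (2.10, SE 0.074, adjusted p = 1.81e-20). The siZIP7_2 level was 2.45-fold lower than that of siZIP7_1 (log2 difference -1.29, SE 0.059, adjusted p = 4.73e-18), although siZIP7_2 left less SLC39A7 mRNA. Counts behind these values ran from 225 to 3699 reads. Among the 16761 genes GDF15 ranked 119 by rise with siZIP7_1 and 1027 with siZIP7_2. No other annotated gene shares its exons.

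GDF9, on the minus strand at 5:132861181-132866884, encodes a growth factor best known from the oocyte. It was the least abundant ligand with siNC, at 0.472, 0.301 and 0.570 CPM, which are 13, 7 and 16 reads. These siNC counts alone would not have passed the low-count filter, so the calls of GDF9 as higher below are no separate support. The siZIP7_1 libraries held 1.42, 1.13 and 1.19 CPM (33 to 39 reads) and the siZIP7_2 libraries 2.48, 2.83 and 2.38 CPM (62 to 86 reads). The groups did not overlap, and unlike GDF15 the level was highest with siZIP7_2. The log2 fold change was 1.44 (SE 0.27, adjusted p = 2.49e-05) with siZIP7_1 and 2.49 (SE 0.24, adjusted p = 1.46e-10) with siZIP7_2, and the siRNAs differed by 1.05 (SE 0.19, adjusted p = 1.3e-05). The call past 1.8-fold with siZIP7_1 (adjusted p = 0.0303) was lost without siNC replicate 1 (0.0561), without siNC replicate 2 (0.144) and without siZIP7_1 replicate 1 (0.0912), and also when no low-count filter was applied (0.0518). Of the exonic length of GDF9, 9.33% is overlapped by UQCRQ, a respiratory chain gene on the opposite strand, and whether counting used strand is not given in the sources used here. UQCRQ was at 99.5 CPM with siNC, 97.4 with siZIP7_1 and 53.4 with siZIP7_2, a log2 fold change of -0.03 and -0.90, the direction opposite to GDF9.

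GDF11, on the plus strand at 12:55743280-55757278, encodes a close relative of myostatin that signals through activin receptors. It was at 18.9, 20.3 and 20.6 CPM with siNC, 10.9, 10.6 and 10.9 CPM with siZIP7_1, and 35.8, 37.7 and 34.7 CPM with siZIP7_2. The 3 groups did not overlap, with siNC in the middle. The log2 fold change was -0.88 (SE 0.072, adjusted p = 6.91e-12) with siZIP7_1 and 0.86 (SE 0.064, adjusted p = 7.18e-13) with siZIP7_2, changes of similar size and opposite sign. Neither passed the test against 1.8-fold, whereas the difference between the siRNAs did (log2 difference 1.74, SE 0.068, adjusted p = 2.17e-13 against 1.8-fold).

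The inhibin beta subunits form the activins. INHBA, the subunit of activin A, on the minus strand at 7:41667168-41705834, followed the pattern of GDF11. Its level was 7.84, 9.15 and 10.1 CPM with siNC, 3.53, 3.74 and 3.51 CPM with siZIP7_1, and 15.6, 16.6 and 15.7 CPM with siZIP7_2. The groups did not overlap. It fell with siZIP7_1 (log2 fold change -1.33, SE 0.11, adjusted p = 8.91e-12) and rose with siZIP7_2 (0.83, SE 0.090, adjusted p = 1.91e-09), so that siZIP7_2 was 4.44-fold above siZIP7_1.

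INHBB, the subunit of activin B, on the plus strand at 2:120346143-120351808, rose with both siRNAs. It was at 22.5, 21.1 and 21.9 CPM with siNC, 69.0, 69.9 and 66.9 CPM with siZIP7_1, and 26.2, 25.7 and 29.1 CPM with siZIP7_2. The siZIP7_1 libraries stood far above the rest, and the siZIP7_2 libraries lay just above siNC without overlap. The rise was 3.13-fold with siZIP7_1 (log2 fold change 1.65, SE 0.059, adjusted p = 2.98e-20) and 1.23-fold with siZIP7_2 (0.30, SE 0.063, adjusted p = 9.45e-05). The log2 difference of siZIP7_2 from siZIP7_1 was -1.35 (SE 0.057, adjusted p = 1.07e-18). INHBA was thus higher with siZIP7_2 and INHBB higher with siZIP7_1, each relative to the other siRNA.

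INHBE, the beta-E subunit, a liver-enriched gene known as a target of the ER stress factor ATF4, was close to the limit of detection (plus strand, 12:57452323-57459280). The siNC libraries held 0.617, 1.29 and 0.783 CPM (17 to 30 reads), the siZIP7_1 libraries 0.182, 0.447 and 0.439 CPM (5 to 14 reads) and the siZIP7_2 libraries 0.776, 0.724 and 1.23 CPM (20 to 32 reads). The siZIP7_1 range lay below the others, while siNC and siZIP7_2 overlapped. The log2 fold change was -1.27 (SE 0.36, adjusted p = 0.00244) with siZIP7_1 and 0.04 (SE 0.30, adjusted p = 0.911) with siZIP7_2, the latter with a 95% interval of -0.58 to 0.66. At this depth a change of either sign within that interval was not detectable.

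**Figure D2:**
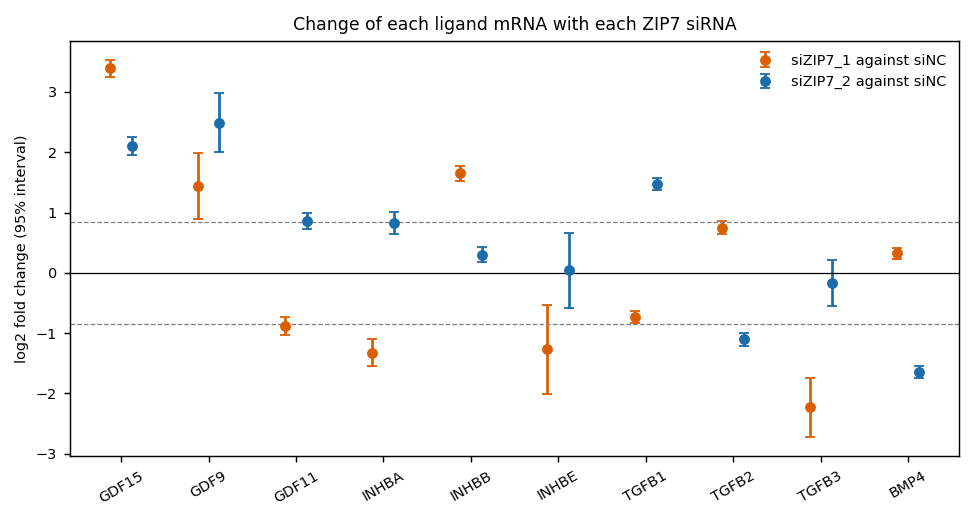
Log2 fold change of each ligand against siNC for each ZIP7 siRNA, with points for the estimate and bars for its 95% interval, and dashed lines at a 1.8-fold change. GDF15, GDF9 and INHBB lie above 0 with both siRNAs, GDF11, INHBA, TGFB1, TGFB2 and BMP4 lie on opposite sides of 0, and the siZIP7_2 intervals of INHBE and TGFB3 include 0.

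Among the TGF-betas, TGFB1, on the minus strand at 19:41301587-41353911, was lowest with siZIP7_1 and highest with siZIP7_2. The levels were 223, 214 and 216 CPM with siNC, 132, 126 and 135 CPM with siZIP7_1, and 632, 565 and 605 CPM with siZIP7_2. The groups were far apart relative to their spread. The log2 fold change of TGFB1 was -0.73 with siZIP7_1 (SE 0.049, adjusted p = 9.06e-14) and 1.47 with siZIP7_2 (SE 0.049, adjusted p = 5.61e-21), a 2.76-fold rise. Between the siRNAs the difference was 4.59-fold (log2 difference 2.20, SE 0.050, adjusted p = 4.12e-25). HNRNPUL1, on the opposite strand, overlaps 6.64% of its exonic length and was at 677 CPM with siNC, 495 with siZIP7_1 and 529 with siZIP7_2, lower with both siRNAs.

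TGFB2, on the plus strand at 1:218346235-218444619, changed in the reverse direction. It was at 112, 107 and 120 CPM with siNC, 190, 196 and 184 CPM with siZIP7_1, and 51.0, 52.7 and 53.8 CPM with siZIP7_2. The 3 groups did not overlap. The log2 fold change was 0.75 (SE 0.049, adjusted p = 3.45e-14) with siZIP7_1 and -1.10 (SE 0.052, adjusted p = 1.52e-17) with siZIP7_2, so that siZIP7_2 was 3.62-fold below siZIP7_1. TGFB2-OT1, on the same strand, covers 26.6% of the exonic length of TGFB2 and had 0 counts in all 9 libraries. Reads that fall on both annotations cannot be assigned to either gene.

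TGFB3, on the minus strand at 14:75958099-75982991, was the scarce member of the trio. Its level was 2.58, 2.15 and 2.46 CPM with siNC (50 to 71 reads), 0.364, 0.481 and 0.659 CPM with siZIP7_1 (10 to 21 reads) and 2.06, 1.74 and 2.65 CPM with siZIP7_2 (53 to 69 reads). The siZIP7_1 libraries lay below all others, and the siNC and siZIP7_2 ranges overlapped. It fell 4.70-fold with siZIP7_1 (log2 fold change -2.23, SE 0.24, adjusted p = 2.17e-09), while with siZIP7_2 the change was -0.17 (SE 0.19, adjusted p = 0.408, 95% interval -0.55 to 0.21).

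BMP4, a ligand of the SMAD1, SMAD5 and SMAD9 branch, on the minus strand at 14:53949736-53958761, followed the pattern of TGFB2. It was at 159, 167 and 171 CPM with siNC, 210, 204 and 207 CPM with siZIP7_1, and 50.1, 54.4 and 54.4 CPM with siZIP7_2. The groups did not overlap. The rise with siZIP7_1 was small (1.25-fold, log2 fold change 0.32, SE 0.046, adjusted p = 4.27e-07) and the fall with siZIP7_2 was larger (3.12-fold, log2 fold change -1.64, SE 0.050, adjusted p = 6.46e-22). Between the siRNAs the log2 difference was -1.97 (SE 0.050, adjusted p = 4.7e-24). The ranges of siNC and each ZIP7 siRNA did not overlap for 10 of 10 ligands with siZIP7_1 (72.1% of all genes) and 8 of 10 with siZIP7_2 (78.7%), nor did those of the siRNAs for 10 of 10 (79.7%).

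To compare levels between ligands, CPM was divided by exonic length in kb. With siNC the order was TGFB1 (67.2 CPM per kb), BMP4 (53.7), TGFB2 (21.9), INHBB (6.82), GDF15 (5.01), GDF11 (2.30), INHBA (1.09), TGFB3 (0.487), INHBE (0.297) and GDF9 (0.136), and no neighbours in this order had overlapping ranges. With siZIP7_1 BMP4 led at 67.3 CPM per kb, and GDF15 came next at 52.8 CPM per kb, above TGFB1 at 40.4, TGFB2 at 36.9 and INHBB at 21.4. Below these, the ranges of the neighbours INHBA and GDF9 overlapped, as did those of INHBE and TGFB3. With siZIP7_2 TGFB1 stood at 186 CPM per kb, followed by GDF15 at 21.5, BMP4 at 17.2, TGFB2 at 10.2 and INHBB at 8.42, and the ranges of TGFB3 and INHBE overlapped at the foot of the order.

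The make-up of the 10 mRNAs therefore differed by siRNA. TGFB1 made up 41.1 to 43.5% of their summed CPM per kb with siNC, 18.1 to 18.7% with siZIP7_1 and 73.1 to 75.3% with siZIP7_2. GDF15 made up 2.96 to 3.32%, 22.2 to 24.9% and 8.57 to 8.65%, and BMP4 32.5 to 34.6%, 30.1 to 30.8% and 6.28 to 7.40%, in the same order. For none of these 3 ligands did the shares in siZIP7_2 overlap those of another group. The sum itself was 159 ± 2.97 CPM per kb for siNC, 221 ± 5.26 for siZIP7_1 and 250.5 ± 10.6 for siZIP7_2 (mean ± SD of 3). Without GDF15 it was 154 ± 2.77, 168 ± 1.22 and 229 ± 9.65 CPM per kb.

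**Figure D3:**
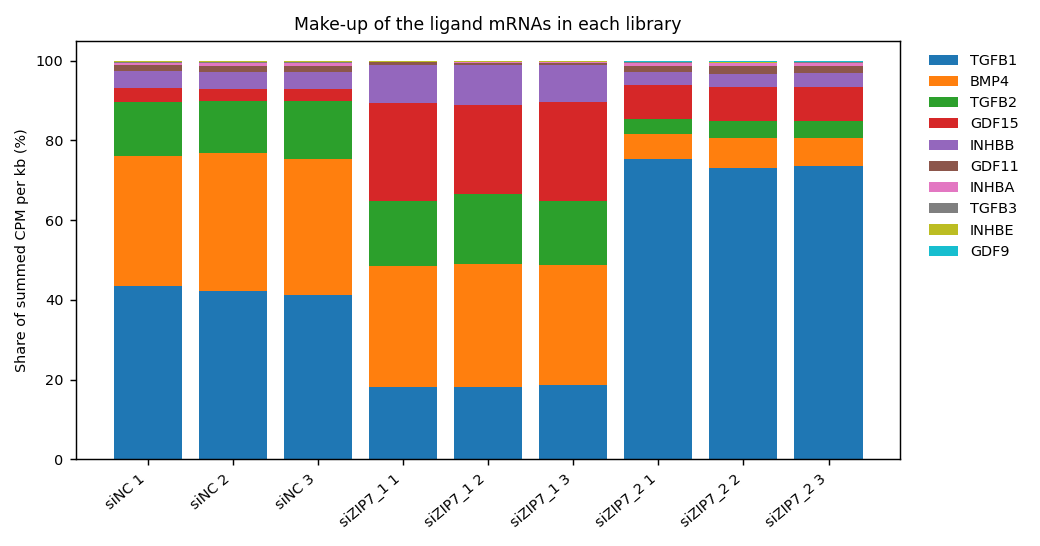
Share of each ligand in the summed CPM per kb of the 10 ligand mRNAs (percent, stacked bars, a bar for each of the 9 libraries). TGFB1 fills 73.1 to 75.3% of the siZIP7_2 bars and 18.1 to 18.7% of the siZIP7_1 bars, and GDF15 fills 22.2 to 24.9% of the siZIP7_1 bars.

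The genes whose log2 CPM was most like that of GDF15 over the 9 libraries, among 11617 genes of at least 5 CPM in their highest group, were VSIR (Pearson r = 0.999), which encodes the immune checkpoint protein VISTA, LURAP1L (0.998) and TRNP1 (0.998). VSIR was at 14.7, 88.0 and 42.4 CPM with siNC, siZIP7_1 and siZIP7_2. For GDF9 they were TMEM81 (0.996), AL021807.1 (0.992) and TXK (0.992), a kinase of the TEC family. For TGFB2 they were SRSF8, TNFSF18 and MTMR1 (0.998 each), of which TNFSF18, the ligand of the receptor GITR, was at 13.6, 66.4 and 1.82 CPM. An r above 0.99 was shared by 76 genes with GDF15, 5 with GDF9 and 147 with TGFB2. The 9 points form 3 groups, so these values mainly describe the relative spacing of the 3 group means, and no test was made.

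The remaining genes of the pathway were taken from 12 lists with 129 genes, of which 96 passed the low-count filter. With siZIP7_1, 25 were higher and 52 lower, and with siZIP7_2, 59 were higher and 27 lower, out of 96. Over all genes tested, 34.8% were higher and 35.9% lower with siZIP7_1, and 38.5% higher and 39.3% lower with siZIP7_2, which is the background for the counts of each list below. Opposite directions were seen for 41 of the 96 genes, against 18.7% of all genes tested. Of the 41, 33 were lower with siZIP7_1 and higher with siZIP7_2, as for GDF11, INHBA and TGFB1. The share of all genes that moved in this order was not computed, so the count of 33 has no background. In the same direction, 16 were higher and 15 lower with both, against 17.7% and 20.8% of all genes. Genes named below were the highest and lowest of each list by the mean of both log2 fold changes, the tested type I and type II receptors, GFRAL and RET. SMAD3, FST, LTBP1, LTBP3, ITGB8, IL11, ID3, ATOH8, MSX2, ATF4, DDIT3 and CHAC1 fall outside that rule and were chosen after their values were seen.

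Of 23 other ligands of the family, 6 were tested, and 17 had too few counts. For GDF1, with 0 counts, CERS1 overlaps 100% of the exonic length, so its count cannot be read as low expression. Of NODAL and LEFTY1, 41.2% and 46.6% are overlapped, so part of their reads may have gone uncounted. They had at most 2 and 5 reads in a library. These genes were named after their values were seen. With siZIP7_1, 1 was higher and 3 lower, and with siZIP7_2, 3 were higher and 1 lower. INHA, the inhibin alpha subunit, was scarce, with at most 19 reads in a library. It averaged 0.201 ± 0.0254 CPM with siNC, 0.417 ± 0.213 with siZIP7_1 and 0.593 ± 0.153 with siZIP7_2. The log2 fold change was 1.03 (SE 0.45) with siZIP7_1, which passed the quasi-likelihood test narrowly (adjusted p = 0.0452), and 1.51 (SE 0.43) with siZIP7_2. Its siNC level alone would not have passed the low-count filter, so its calls as higher are no separate support. BMP2, an osteogenic ligand, fell from 7.55 CPM to 3.69 and 4.93 CPM (log2 fold change -1.03 and -0.62).

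Of the type I receptors, 6 of 7 were tested, with 3 higher and 2 lower with siZIP7_1 and 4 higher and 1 lower with siZIP7_2. TGFBR1, the type I receptor for TGF-betas, was at 92.2 ± 6.20 CPM with siNC, 33.5 ± 2.81 with siZIP7_1 and 165 ± 4.98 with siZIP7_2, log2 fold changes of -1.46 and 0.84. ACVR1C, an activin and nodal receptor also known as ALK7, rose with both, from 0.301 CPM to 0.760 and 3.50 CPM (log2 fold change 1.31 and 3.50). The siNC level of ACVR1C alone would not have passed the low-count filter, so its calls as higher are no separate support. ACVR1 also rose with both (0.39 and 0.55), while BMPR1B rose with siZIP7_1 and fell with siZIP7_2 (0.42 and -0.58). BMPR1A passed the test only with siZIP7_2 (-0.14 and 0.17), and ACVR1B only with siZIP7_1 (-0.33 and -0.09). Of the type II receptors, 4 of 5 were tested, and all 4 were called with each siRNA. TGFBR2, the TGF-beta type II receptor, was at 440 ± 4.0, 202 ± 7.14 and 504 ± 10.1 CPM (log2 fold change -1.12 and 0.20), and BMPR2, which binds BMP4, was at 76.6, 34.8 and 89.5 CPM (-1.14 and 0.22). ACVR2B, which binds activins and GDF11, rose with both, from 27.1 CPM to 54.4 and 39.4 CPM (1.01 and 0.54), as did ACVR2A (0.42 and 0.26).

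The GDF15 receptor GFRAL had 0 counts in all 9 libraries, and its partner RET had at most 2. Among the co-receptors and the decoy receptor, 4 of 8 were tested, with 1 higher and 3 lower with siZIP7_1 and 4 higher with siZIP7_2. TGFBR3, or betaglycan, which presents TGFB2 to its receptors, rose from 12.3 ± 0.448 CPM to 59.3 ± 0.407 with siZIP7_1 and 66.5 ± 3.29 with siZIP7_2 (log2 fold change 2.27 and 2.43, adjusted p = 4.75e-23 and 9.9e-24). RGMB, a BMP co-receptor, was at 214, 92.1 and 272 CPM (-1.22 and 0.35). Its exons share 45.6% of their length with other annotated genes.

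Of the 8 SMAD genes, 1 was higher and 3 were lower with siZIP7_1, and 3 were higher and 3 lower with siZIP7_2. SMAD7, the inhibitory SMAD that TGF-beta itself induces, was at 20.0, 10.6 and 68.6 CPM (log2 fold change -0.92 and 1.78), and SMAD3 at 317, 186 and 561 CPM (-0.77 and 0.83). SMAD9 had values of 0.978, 0.633 and 0.699 CPM and passed the test with neither siRNA. Of 7 SMAD repressors and ubiquitin ligases, 1 was higher and 3 lower with siZIP7_1, and 5 higher and 2 lower with siZIP7_2. SKIL, a SMAD repressor, rose with both (0.23 and 0.89), and TGIF2 fell with both (-0.43 and -1.19).

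Secreted antagonists were tested for 9 of 14 genes, with 5 higher and 3 lower with siZIP7_1 and 4 higher and 3 lower with siZIP7_2. BMPER, which binds BMPs, rose from 1.37 CPM to 5.41 and 6.14 CPM (log2 fold change 1.97 and 2.15). NOG, or noggin, which binds BMP4, fell from 62.0 to 16.4 CPM with siZIP7_1 (-1.92) and was at 63.9 CPM with siZIP7_2 (0.05, adjusted p = 0.468). FST, or follistatin, which neutralizes activins, was at 137 ± 6.52 CPM with siNC, 254 ± 4.93 with siZIP7_1 and 25.5 ± 0.924 with siZIP7_2 (0.89 and -2.42), the reverse of INHBA.

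Genes of latency, activation and processing were tested for 12 of 14, with 1 higher and 7 lower with siZIP7_1 and 8 higher and 2 lower with siZIP7_2. The latent TGF-beta binding protein genes LTBP1 and LTBP3 were at 96.7, 15.8 and 123 CPM and at 38.7, 19.8 and 174 CPM (log2 fold change -2.61 and 0.34, and -0.97 and 2.16). THBS1, or thrombospondin 1, an activator of latent TGF-beta, fell with both, from 4680 CPM to 1313 and 1648 CPM (-1.83 and -1.51). ITGB6, a subunit of an integrin that activates TGF-beta, was near the floor with siNC and siZIP7_1, at 0.107 ± 0.0946 and 0.0903 ± 0.0718 CPM. With siZIP7_2 it was at 1.26 ± 0.360 CPM, and no library held more than 43 reads. It passed the low-count filter only through the siZIP7_2 libraries, where it was high, so its call as higher is no separate support. ITGB8, another integrin subunit of the list, rose with siZIP7_1 and fell with siZIP7_2. It was at 21.0 ± 2.24, 50.4 ± 2.42 and 12.9 ± 0.587 CPM (1.26 and -0.70).

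**Figure D4:**
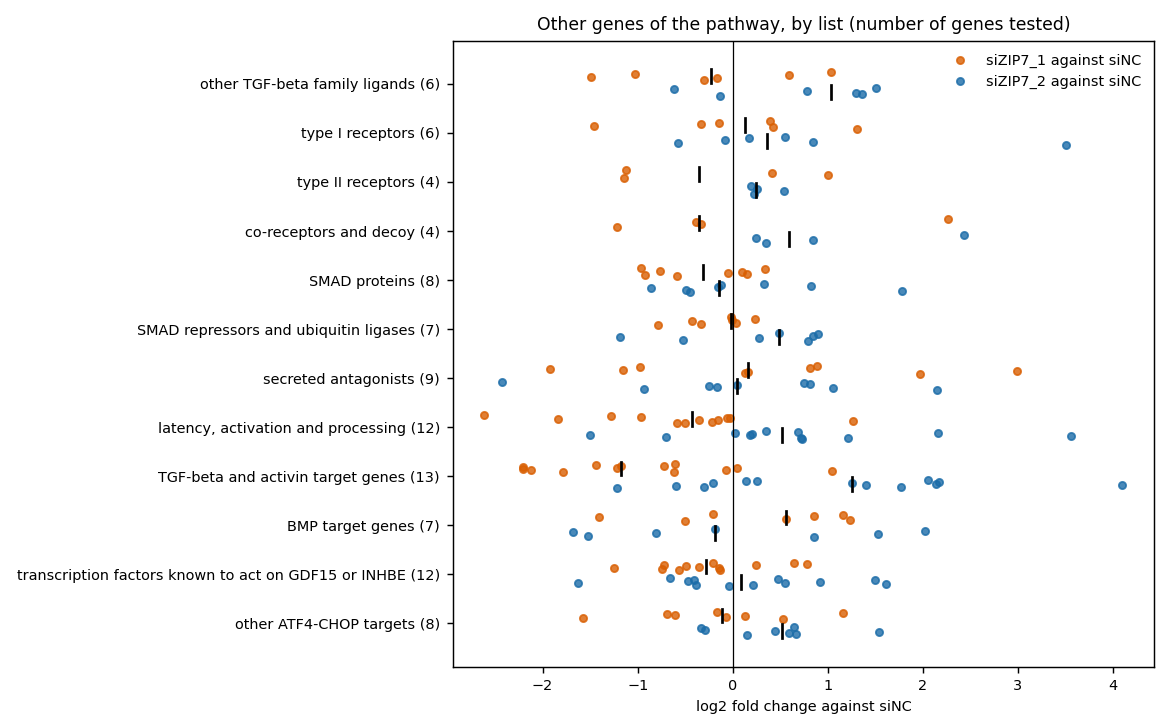
Log2 fold change against siNC of the 96 tested pathway genes in 12 lists, with a point for each gene and siRNA and a black bar for the median of a list. The TGF-beta and activin target genes have the most widely separated medians, -1.18 with siZIP7_1 and 1.25 with siZIP7_2.

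Target genes of TGF-beta and activin were tested for 13 of 14, and 1 was higher and 10 were lower with siZIP7_1, while 9 were higher and 4 lower with siZIP7_2, where 70.7% and 77.8% of all genes were called in either direction. The medians of the log2 fold changes were -1.18 and 1.25. IL11, an interleukin induced by TGF-beta in metastatic breast cancer cells, was at 81.2 ± 10.5 CPM with siNC, 17.5 ± 0.677 with siZIP7_1 and 1390 ± 108 with siZIP7_2 (-2.21 and 4.10, adjusted p = 2.38e-20 and 2.6e-27). COL1A1, a fibrillar collagen chain, rose with both (1.04 and 1.77), and TAGLN, an actin-binding protein, fell with both (-1.79 and -0.30). Of the targets, 7 moved in opposite directions, against 18.7% of all genes tested. Each was lower with siZIP7_1 and higher with siZIP7_2, an order for which no share over all genes was computed.

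BMP target genes were tested for 7 of 8, with 4 higher and 3 lower with siZIP7_1 and 3 higher and 4 lower with siZIP7_2, and medians of 0.56 and -0.18. ID3 was at 23.4 ± 1.21, 42.4 ± 0.479 and 7.32 ± 0.522 CPM (log2 fold change 0.86 and -1.68), the order of BMP4 itself. ATOH8 also rose with siZIP7_1 and fell with siZIP7_2 (1.23 and -1.52), while MSX2 moved the reverse way (-0.50 and 0.86). These 3 of 7 moved in opposite directions, against 18.7% of all genes tested. With both siRNAs 2 were higher and 2 lower, against 17.7% and 20.8% of all genes. ID2 rose with both (1.16 and 2.02) and ID4 fell with both (-1.41 and -0.81). ID genes encode inhibitors of basic helix-loop-helix factors.

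The 12 transcription factors known to act on GDF15 or INHBE were all tested, with 3 higher and 9 lower with siZIP7_1 and 6 higher and 5 lower with siZIP7_2. ATF3, a stress-induced factor, rose from 15 ± 0.643 CPM to 25.8 ± 0.673 and 42.3 ± 1.42 CPM (log2 fold change 0.78 and 1.49), an order in which siZIP7_2 exceeds siZIP7_1, unlike GDF15. ATF4 was at 294, 255 and 186 CPM (-0.21 and -0.66), and DDIT3, which encodes CHOP, at 26.4, 41.2 and 36.8 CPM (0.64 and 0.48). For DDIT3 the overlapped share of the exons is 39.6%.

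Other targets of ATF4 and CHOP were tested for 8 of 9, with 2 higher and 4 lower with siZIP7_1 and 6 higher and 2 lower with siZIP7_2. VLDLR, a lipoprotein receptor, was at 31.5, 34.4 and 91.2 CPM, a rise that passed the test with siZIP7_2 (log2 fold change 1.53) and not with siZIP7_1 (0.13, adjusted p = 0.063). SESN2, a stress-induced inhibitor of mTORC1, fell with both (-0.70 and -0.30). CHAC1, a glutathione-degrading enzyme, was at 58.8 ± 1.87, 131 ± 1.39 and 46.8 ± 3.84 CPM (1.16 and -0.33), higher than siNC with siZIP7_1 and lower with siZIP7_2.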

How the data were processed

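RNA from 9 libraries of MDA-MB-231 cells was sequenced, and the authors deposited raw counts, as reads assigned to each Ensembl gene. The submitters' processing notes name Trim Galore 0.4.1, FastQC 0.11.2, STAR, HTSeq 0.6.1 and DESeq2 1.16.1. The genome build, annotation and strand setting are not given in the sources used here. The summary lines of the counting program were left out of library sizes. Of 58395 identifiers, 58275 were in GENCODE release 29 (GRCh38), which gave symbols, positions and exonic lengths.

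The analysis used edgeR 4.0.16 under R 4.3.3: TMM normalization, the low-count filter over groups (16761 genes kept) and the quasi-likelihood test in a single fit to all libraries and 3 groups (6 residual degrees of freedom), with Benjamini-Hochberg adjustment at 0.05, and glmTreat against 1.8-fold. The SE was the log2 fold change divided by the square root of F. The biological coefficient of variation was 4.50%, and the chi-square per gene between libraries of the same group was 2.41 to 6.42, so no libraries were merged. The steps were tested on simulated data.

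The alternatives were DESeq2 1.42.0, DESeq2 size factors, a minimum of 10 counts in each library, no filter on low counts, upper-quartile scaling, a replicate block, fits to the compared pair of groups and each library left out. Likeness used log2(CPM + 0.1) and genes of at least 5 CPM in the highest group. The ligands, gene lists and the rule for named genes (all 10 ligands, SLC39A7, receptors, and the highest and lowest gene of each list by mean log2 fold change) were chosen with earlier results of these data known. Values of 2 listed genes are not reported here. Promoter sequences are from RefSeq (GRCh38.p14). siRNA and protein sequences were not used here.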

Additional observations from a re-analysis of the deposited data

Results flagged for a closer look

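For 5 ligands, every library of siZIP7_1 lay on one side of siNC and every library of siZIP7_2 on the other, and the siRNAs differed from each other in edgeR's quasi-likelihood test. The log2 difference of siZIP7_2 minus siZIP7_1 was 1.74 for GDF11, 2.15 for INHBA, 2.20 for TGFB1, -1.85 for TGFB2 and -1.97 for BMP4. The share of reads on no annotated gene, which enters no comparison, averaged 10.8% with siZIP7_2, against 7.81% with siNC. Groups of 3 libraries are too small for a search for outlying libraries, and none was made.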

How the results depend on the processing

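Over 54 results and 687 alternatives, 683 kept their direction and their side of the threshold, with counts within 1.5 times. The other 4 were changes of sign of INHBE with siZIP7_2, which passed the test in none (main value 0.04): -0.013 without a low-count filter, and -0.23 to 0.36 when each library was left out in turn (-0.18 without siNC replicate 1, -0.038 without siNC replicate 3, -0.23 without siZIP7_2 replicate 3). GDF9 and INHBE could not be tested with at least 10 counts in every library, which left 8 ligands. Upper-quartile normalization moved the median of all genes to 0.10 with siZIP7_2 (0.0193 with siZIP7_1). GDF11 then passed 1.8-fold with siZIP7_2, 6 ligands in place of 5. Replicate numbers did not pair libraries: same-numbered deviations correlated between -0.0535 and 0.0822 (9 pairs), and 3 of 9 libraries correlated best with their own number. With the replicate block GDF15 changed by 3.40 and 2.10, the ligands called stayed at 10 and 8 in number, and the pathway genes called were 78 and 87 against 77 and 86. Depth limits GDF9 and INHBE, with as few as 7 and 5 reads in a library.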
